A study of Mus musculus with 6 samples.

Results

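A mock immunoprecipitation with IgG (IgG-IP) was compared with the DNA that had not been precipitated (input) in the hippocampus of mice. The comparison used 4 of the 6 libraries of the series, chosen by their labels alone: the 2 IgG-IP libraries and the 2 input libraries. The 2 libraries precipitated with the H4K5ac antibody were left out. One library of each kind came from mice given contextual fear conditioning (FC), in which a foot shock was delivered in a training context in 2 sessions, and the other came from control mice (CON) handled in the same way without the shock. All mice were C57/BL6 animals of 6 months by the labels, and the hippocampus was taken within 1 h of a memory test on day 3 by the study's methods. There, 3 hippocampal samples per group were cross-linked singly, sheared, incubated with IgG and collected on protein A agarose that carries salmon sperm DNA. IgG-IP and input of a group therefore share their chromatin, and only 1 library per group and kind is at hand. The FC and CON libraries were used as 2 libraries a side, so that nothing here measures the spread between animals. limma moderates the variance of each feature towards that of other features of like level, so its SE and p-value rest mainly on the spread between FC and CON over many features, training included, and can be far smaller than a feature's own spread gives. DNA reads do not name a cell type, and the labelled tissue could not be checked against markers.

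A non-immune IgG has no intended target in chromatin, so the DNA recovered with it is the background of the precipitation: fragments held by the beads, the antibody or the tube, washed to differing degrees. Input shows how often each sequence is recovered by shearing, amplification and alignment alone. Both are used as controls for a specific antibody. Mouse chromosomes have the centromere at one end, next to long arrays of the major satellite, which in the nucleus are packed as pericentromeric heterochromatin and carry trimethylated H3K9. Large families of olfactory and vomeronasal receptor genes lie in AT-rich clusters and are silent in most neurons of the brain.

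A few kinds of sequence carried the results or illustrate them, all read from the mm9 genome. The first is the repeat unit of the major satellite, given here as the first 234 bases of the predicted gene Gm10717 at chr9:3025417-3025650 (plus strand), since 88.9% of the bases of the surrounding kilobase recurred at that distance.

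Gm10717 unit: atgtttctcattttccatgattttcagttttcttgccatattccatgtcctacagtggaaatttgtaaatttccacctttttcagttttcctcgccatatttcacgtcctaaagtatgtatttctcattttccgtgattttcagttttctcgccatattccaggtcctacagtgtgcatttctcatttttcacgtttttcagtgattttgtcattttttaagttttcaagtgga

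The second is a pair of 5S ribosomal RNA gene copies of 118 bases, n-R5s88 at chr9:102030218-102030335 (plus strand) and AC134596.1 at chr12:121157797-121157914 (minus strand). In a gapped alignment 93 bases were identical (78.8%), and capitals mark the bases that were not.

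n-R5s88: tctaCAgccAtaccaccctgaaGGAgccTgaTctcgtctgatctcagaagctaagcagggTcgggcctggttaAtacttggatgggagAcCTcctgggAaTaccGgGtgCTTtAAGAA
AC134596.1: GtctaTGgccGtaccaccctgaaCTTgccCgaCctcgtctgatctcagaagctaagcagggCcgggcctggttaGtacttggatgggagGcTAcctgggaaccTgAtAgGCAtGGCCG

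The third is a set of sites where reads of both IgG-IP libraries piled up at the identical position and strand while input had next to none. Capitals mark the bases that the median IgG-IP read covered, 25 or 26 of the 50 read. The sites are chrX:118321355-118321404 (plus strand, intergenic, nearest gene Gm5394), chr4:131747317-131747366 (minus strand, within Ythdf2), chr3:50092604-50092653 (minus strand, intergenic, nearest gene Slc7a11) and chr12:39143824-39143873 (plus strand, within Dgkb).

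Site near Gm5394: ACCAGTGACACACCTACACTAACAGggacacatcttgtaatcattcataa
Site in Ythdf2: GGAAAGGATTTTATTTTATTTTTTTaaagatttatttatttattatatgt
Site near Slc7a11: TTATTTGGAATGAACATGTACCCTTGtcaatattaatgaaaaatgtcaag
Site in Dgkb: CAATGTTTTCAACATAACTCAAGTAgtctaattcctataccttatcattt

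The fourth shows 200 bases from the middle of a 1 kb window inside the region that ranked first among the losses without passing the test, chr10:80108401-80108600 in Btbd2, with each CpG in capitals.

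Btbd2 window: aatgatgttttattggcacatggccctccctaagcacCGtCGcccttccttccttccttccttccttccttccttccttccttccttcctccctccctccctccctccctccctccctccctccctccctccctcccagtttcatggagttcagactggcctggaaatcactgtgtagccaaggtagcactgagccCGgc

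The libraries held 14549689 (IgG-IP FC), 16491741 (IgG-IP CON), 45673239 (input FC) and 35493806 (input CON) aligned reads, and all levels are given as RPM, the reads scaled to a total of 1000000 aligned reads. Input FC stood apart from the other 3 libraries in GC content. Windows of 10 kb with at least 50% GC held 2.85 times the mean RPM of windows under 38% GC in input FC, compared with 1.16 times in input CON, 0.937 times in IgG-IP CON and 0.834 times in IgG-IP FC. Every FC ratio below therefore carries this difference, which was not tested as a cause, and values against windows or genes of the same GC content are given for part of the results.

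The major satellite took a larger share of reads in IgG-IP than in input in both groups. Matches to the unit, at least 10 words of 12 bases in a window of 1 kb, were counted, so a window need not hold a whole unit. They were found in 213 windows on 18 chromosomes, with 90 windows on Y, 42 on chromosome 9 and 30 on X. These windows took 4.99% of all reads in IgG-IP FC and 3.90% in IgG-IP CON, compared with 0.788% in input FC and 2.04% in input CON. Both IgG-IP libraries lay above both input libraries, and input FC and input CON differed between themselves by more than the IgG-IP libraries did. The log2 ratio of IgG-IP over input was 2.66 in FC and 0.93 in CON. When repeated reads were counted once per 5' position and strand, it was 2.01 and 0.99. This count left 16111 and 15706 positions in IgG-IP FC and CON and 13179 and 16922 in input FC and CON. The reads numbered 725346 and 643166 in IgG-IP and 359744 and 724901 in input, so most of them repeat a position. These ratios therefore depend on the depth of each library. The windows were searched for after the gain of Gm10717 had been seen, so the count is a description. Both IgG-IP libraries exceeded both inputs in 197 of the 213 windows (92.5%), compared with 23.9% of all 2558550 windows of known sequence, counted on 1 read per position. The share of 92.5% carries the same limit of repeated positions and unequal depth. The 23.9% was matched neither for GC content nor for chromosome, although 90 of the 213 windows lay on Y. The 82 of the 213 that were dense in input had a median GC content of 35.8%. In the 131 windows that were not dense in input, the log2 ratio was 2.37 in FC and 0.88 in CON. These windows held only 0.00751% of the reads of IgG-IP FC and 0.00610% of those of IgG-IP CON.

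Predicted gene models that overlap satellite windows gained with them. Gm10717 held 825 RPM in IgG-IP FC and 674 in IgG-IP CON, compared with 72.8 in input FC and 330 in input CON. The 2 IgG-IP values were above both inputs, and input FC was the lowest of the 4. Its log2 ratio was 2.26 (SE 0.16, limma adjusted p = 7.01e-41), where its own 4 libraries gave an SE of 1.10, and 1.70 relative to genes of the same GC content. On chromosome 9 between 3000282 and 3038316, 12 gene models were called higher, with log2 ratios of 1.80 to 2.26, from 2.79 to 3.50 in FC and from 0.79 to 1.13 in CON, and all 12 overlapped a satellite window. They share the repeat, and reads that fit several copies cannot be told apart. On chromosome 2, which had 6 of the 213 windows, Gm10800 and Gm10801 were the most read gene bodies of this kind. Together they held most of the satellite reads of IgG-IP FC, Gm10801 with 9941.86 RPM. Gm10800 held 25240.3 RPM in IgG-IP FC, 19364.8 in IgG-IP CON, 4643.77 in input FC and 10577.6 in input CON, and Gm10801 rose with it (log2 ratio 1.96, SE 0.17, limma adjusted p = 2.13e-27).

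**Figure D1:**
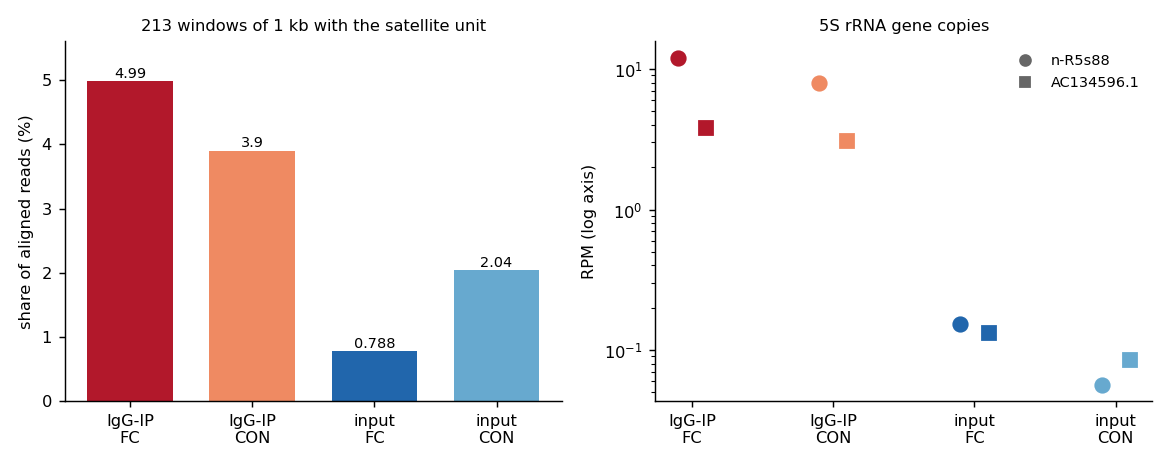
Share of aligned reads (%) in the 213 windows of 1 kb that match words of the satellite unit (left) and RPM on a log axis of 2 annotated 5S rRNA gene copies (right) in each of the 4 libraries. Bars and points are single libraries without an error. IgG-IP was above input in each panel, with 4.99% and 3.90% against 0.788% and 2.04% of reads in the satellite.

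Of the 5S rRNA genes, which encode the small RNA of the large ribosomal subunit, 2 annotated copies held far more reads in IgG-IP than in input. Both passed the filter on low values (a mean of 0.5 RPM) through IgG-IP alone, the side on which they are high, so their values are a description and no p-value is given. n-R5s88 had 175 reads in IgG-IP FC, 132 in IgG-IP CON, 7 in input FC and 2 in input CON, or 12.03, 8.004, 0.153 and 0.0563 RPM. Its log2 ratio was 5.64, and 6.21 relative to genes of the same GC content. AC134596.1 had 55, 51, 6 and 3 reads in the same order and a log2 ratio of 4.09. IgG-IP and input did not overlap in either gene. At n-R5s88 the median aligned length was 32 and 33.5 bases in IgG-IP FC and CON and 48 and 46 bases in input, and at AC134596.1 it was 37 and 40 bases in IgG-IP and 50 and 38 in input, so that only the first copy had shorter IgG-IP reads in both groups. Counting each position once, the log2 ratios of n-R5s88 were 2.86 in FC and 3.32 in CON. Over all 332 annotated rRNA genes summed, IgG-IP held 38.7 and 35.5 RPM and input 26.6 and 21.9 RPM. Without the 2 copies the log2 ratio of the remaining 330 was -0.20 in FC and 0.16 in CON, so the 2 copies carried the summed difference in FC.

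Short alignments marked most of the sharpest gains at 1 kb. Of 1982711 windows of 1 kb with enough reads, 52 (0.00262%) were called higher, the lower IgG-IP value being at least 4 times the higher input value on the RPM + 0.1 scale, and 148 (0.00746%) were called lower by the reverse rule. No test was made at this size, since most windows held only a few reads. In 39 of the 52 gained windows the median IgG-IP read was aligned over fewer than 30 bases in both libraries. Among single reads, 8.51% in IgG-IP FC and 7.74% in IgG-IP CON were that short. The share of all windows with so short a median was not counted. In these 39 windows the median read count was 68 in IgG-IP FC, 51 in IgG-IP CON, 12 in input FC and 13 in input CON, although the reads began at a median of 10, 10, 12 and 12 positions. Thus, in raw counts, IgG-IP had several times the reads of input from no more starting positions, although its libraries are less deep. In RPM with 1 read per position, both IgG-IP libraries were above both inputs in 36 of the 39. Of all 2558550 windows of known sequence this held in 23.9%. The 39 had been picked for high IgG-IP on the same reads, so their count is a description. The tallest stack lay at the identical position and strand in both IgG-IP libraries in 30 of the 39 windows and within 50 bases in all 39. Median mapping quality was 11 in both IgG-IP libraries and 81 and 83 in the inputs.

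The sites printed above are examples. The stack near Gm5394 held 64 reads in IgG-IP FC, 50 in IgG-IP CON and 0 in each input. The stack in Ythdf2, which encodes a reader of methylated adenosine in RNA, held 82, 51, 0 and 0 reads, that near Slc7a11 held 68, 52, 0 and 0, and that in Dgkb, a diacylglycerol kinase gene, held 66, 35, 0 and 0. A count of 0 allows up to 3 reads, or 0.0657 RPM in input FC and 0.0845 RPM in input CON, for counting error only. When reads aligned over fewer than 40 bases were left out, a setting chosen after seeing the data, 20 windows were gained, of which 6 were among the 52. Counting each position once left 4 past the rule. In 49 of the 52, picked on the same reads, both IgG-IP libraries were still above both inputs, beside 23.9% of all known windows.

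The 148 lost windows rested on few IgG-IP reads. In 108 of them at least 1 IgG-IP library had no read. With counts under 3 raised to 3 reads (0.206 RPM in IgG-IP FC, 0.182 RPM in IgG-IP CON), only 1 of the 148 was still at least 4-fold lower, with a median of 2.60-fold. All 52 gained windows stayed at least 4-fold higher, which their rule had fixed, since none had an input library at 0. The 13 gained windows outside the 39 had median counts of 12 and 17 reads in IgG-IP and 5 and 4 in input. Some gained windows thus met the minimum of 10 reads through IgG-IP alone. None of the 148 held more than 2 reads in an IgG-IP library, so all of them met the minimum of 10 reads through input alone, and their GC content and position are those of windows well read in input. The median GC content of the 148 was 47.9%, compared with 42.4% of all windows measured, and 61.5% of them overlapped an annotated gene, compared with 46.2%. Median counts were 0 and 0 reads in the IgG-IP libraries, 28 in input FC and 20 in input CON, and in 79 windows both IgG-IP libraries had no read.

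At 10 kb, 165 of 250821 windows (0.0658%) were higher and 29 (0.0116%) lower in IgG-IP (limma with Benjamini-Hochberg adjustment, threshold 0.05). The spread of the window's own libraries gave a larger SE than limma's in 155 of the 165 and 27 of the 29, and the same linear model without moderated variance called 0 and 0, with unadjusted p-values under 0.05 in 4688 and 6880 windows. The gained windows were poor in GC, with a median of 36.9%, and the lost windows rich, with a median of 50.9%. No gene overlapped 116 of the 165 gained and 6 of the 29 lost windows, compared with 50.6% of all windows tested. Counting each position once, both IgG-IP libraries were above both inputs in 150 of the 165 and below both in 23 of the 29. The windows were called on the same reads and the share over all 10 kb windows was not counted, so this is a description. A satellite window lay in 27 of the 165 and a 4-fold 1 kb window in 23, which left 115 with neither. In 1 of the 165 and in 2 of the 29, FC and CON moved in opposite directions. Omitting the input CON library, which leaves input FC alone on its side, raised the calls to 37407 higher and 38124 lower windows, and omitting IgG-IP FC reduced them to 17 and 5. Without IgG-IP CON there were 38 and 9, and without input FC 58 and 7. With the training group as a block limma called 88 and 7, and limma voom called 16 and 0, with unadjusted p-values under 0.05 in 15165 and 8734 windows.

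Some of the gained windows lay in clusters, which were picked from the calls themselves. On the Y chromosome 15 of 220 windows tested (6.82%) were called, between 1 and 3 Mb, with log2 ratios on 1 read per position from 1.18 up to 2.96 (FC) and from 0.40 up to 1.03 (CON), and 4 of them held a satellite window. Chromosome 15 held 13 called windows between 14 and 17 Mb, from 1.35 up to 2.28 (FC) and from 0.52 up to 1.11 (CON), and none held a satellite window. On chromosome 17, 8 windows between 18 and 21 Mb, where Vmn2r genes are clustered, ranged from 1.53 up to 2.22 (FC) and from 0.50 up to 0.97 (CON). On X, 7 called windows lay between 121210001 and 122850000, from 1.25 up to 1.85 (FC) and from 0.16 up to 0.77 (CON), which are the lowest CON ratios of these clusters. Clusters of 4 windows each lay at 13 to 14 Mb of chromosome 19 and at 3 to 4 Mb of chromosome 16. With each library centred by GC content, the log2 ratios with all reads were 0.17 to 1.83 on Y, 0.54 to 0.83 on chromosome 15, 0.50 to 0.96 on chromosome 17 and 0.43 to 1.62 on X. On X 21 of 14662 windows were called (0.143%). Chromosome 15 had 0.189% of 10028 windows called, chromosome 17 had 0.154% of 9065 and chromosome 19 had 0.155% of 5797. Of all windows tested 0.0658% were called higher.

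Some calls came from 1 library. In the Acacb intron window at chr5:114600001-114610000, IgG-IP CON held 397 RPM, compared with 2.68 in IgG-IP FC, 6.85 in input FC and 3.86 in input CON. In the Fgfr2 intron window at chr7:139360001-139370000, input FC held 87.7 RPM and the other libraries 2.82 (IgG-IP FC), 4.31 (IgG-IP CON) and 5.01 (input CON). The Pla1a window at chr16:38400001-38410000 held 91.5 RPM in input CON and 4.61 to 6.50 in the others. With 1 read per position these windows held 3.32, 6.11 and 4.51 RPM in the libraries concerned, so nearly all of the excess lay in repeated positions.

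Windows were ranked by the smallest of their 4 log2 ratios (each group, with all reads and with 1 read per position). First among the gains was the Vmn2r91 intron window chr17:18260001-18270000. It held 1.58 RPM in IgG-IP FC, 2.24 in IgG-IP CON, 0.525 in input FC and 0.704 in input CON, and its log2 ratio was 1.48 (SE 0.40, limma adjusted p = 0.109), or 1.24 centred by GC content. The intergenic window chrX:60000001-60010000 held 0.756, 1.46, 0.153 and 0.479 RPM in the same order (log2 ratio 1.59). Other gains lay in Gm5934 on X (log2 ratio 1.54), at 7980001 of chromosome 1 (1.33), at 15670001 of chromosome 7 (1.42) and in Gm6026 on Y (1.19), and none of these 4 passed the test. The windows on X at 60000001 and in Gm5934 and that in Gm6026 passed the filter on low values through IgG-IP alone, and that near Magea5 through input alone, so their values are a description without a test. The first loss was the window chr10:80100001-80110000 over Csnk1g2 and Btbd2, part of whose sequence is shown above, with 2.06 and 1.27 RPM in IgG-IP and 5.85 and 3.21 RPM in input (log2 ratio -1.36, SE 0.35, limma adjusted p = 0.0764), or -0.68 centred by GC content. In an intron of Spred2 (chr11:19830001-19840000), a gene for an inhibitor of growth factor signalling, IgG-IP held 2.47 and 2.55 RPM and input 5.10 and 6.68 RPM (log2 ratio -1.19, SE 0.29, limma adjusted p = 0.0486), or -0.93 centred by GC content. The windows in Tmem132d (-1.11), near Magea5 on X (-1.30), over Unc13d and Wbp2 (-1.09) and in Gm20388 (-1.12) did not pass the test. IgG-IP and input did not overlap in any of the 12 windows, which were ranked on these values.

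Of 23863 gene bodies tested, 36 (0.151%) were higher and 29 (0.122%) lower in IgG-IP (limma). These counts include 3 of the 36 and 3 of the 29 that passed the filter on low values only through the side on which they are high. The SE from a gene's own libraries was larger than limma's in 34 of the 36 and 26 of the 29, with medians of 0.59 against 0.19 and 0.35 against 0.19, and the linear model without moderated variance called 0 and 0, with unadjusted p-values under 0.05 in 198 and 873 genes. Of those higher, 14 were the satellite gene models on chromosomes 9 and 2, 2 were the 5S copies, and 7 were vomeronasal receptors of the Vmn2r family, which detect pheromones in the vomeronasal organ. The gene bodies that rose had a median GC content of 35.5% and those that fell 52.0%. Calls depended on 1 library, as for windows: without input CON there were 1838 higher and 9770 lower genes, without IgG-IP FC 16 and 1, without IgG-IP CON 16 and 6, and without input FC 50 and 27. With the training group as a block, since IgG-IP and input of a group share their chromatin, limma called 22 higher and 4 lower, and with the block and centring by GC content 8 and 27. Scaling the libraries to a common median, which moved the median log2 ratio of all genes from -0.29 to 0.00, left 3 higher and 0 lower by limma, with unadjusted p-values under 0.05 in 2233 and 871 genes, and limma voom called 18 higher and 0 lower.

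The Vmn2r genes rose by 0.91 to 1.55 on the log2 scale. Vmn2r109 (chr17:20677481-20701720) held 13.8 RPM in IgG-IP FC and 10.9 in IgG-IP CON, compared with 3.92 in input FC and 7.21 in input CON. Both IgG-IP values were above both inputs. Its log2 ratio was 1.19 (SE 0.27, limma adjusted p = 0.00689), and 0.63 relative to genes of the same GC content. The pseudogene Vmn2r-ps82 held 4.74, 4.18, 0.766 and 2.68 RPM (log2 ratio 1.55, SE 0.36, limma adjusted p = 0.0129), or 0.85 at the same GC content. Relative to genes of the same GC content Vmn2r94 stood at 0.33, Vmn2r98 at 0.31 and Vmn2r95 at 0.44. The lowest and highest ratios among the 7 were 1.23 and 2.48 in FC and 0.33 and 0.63 in CON.

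A few long genes were also higher. Drg1 (chr11:3087363-3166418), which encodes a GTP-binding protein, held 380 and 327 RPM in IgG-IP FC and CON and 236 and 204 RPM in input, a log2 ratio of 0.69 in FC and 0.68 in CON (limma adjusted p = 0.0166), and 0.81 relative to genes of the same GC content. It overlaps windows of 1 kb dense in input, such as chr11:3094001-3095000, with 33.3 and 28.2 RPM in IgG-IP and 19.9 and 16.5 RPM in input. Chl1, a neural cell adhesion gene, held 251 and 254 RPM in IgG-IP and 84.7 and 180 RPM in input (log2 ratio 1.03, SE 0.16, limma adjusted p = 3.56e-07), and 0.72 relative to genes of the same GC content. With 1 read per position its ratio was 0.65 in FC and 0.07 in CON, and a window of 1 kb within it that was dense in input and had no tandem repeat held 157 and 159 RPM in IgG-IP against 16.2 and 82.8 RPM in input. Cdh12, a cadherin gene, and Skint5 had log2 ratios of 0.68 (limma adjusted p = 0.0253) and 0.66 (limma adjusted p = 0.0340), and 0.29 and 0.27 relative to genes of the same GC content. Centring each library by GC content, without that reference to all genes, turned both slightly below 0. Cdk5rap2, a centrosome gene, rose by 1.00 with all reads and had -0.20 in FC and 0.09 in CON with 1 read per position.

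The lost genes included long, GC-rich genes and short ones. Of the 29, 23 were longer than 30 kb, with GC contents of 43.7% to 56.0%. Rbfox3 (chr11:118351074-118772911), which encodes the neuronal marker NeuN, held 142 and 165 RPM in IgG-IP and 295 and 190 RPM in input. The IgG-IP values were the lowest, with a log2 ratio of -1.06 in FC and -0.21 in CON (limma adjusted p = 0.0432), and -0.08 relative to genes of the same GC content. The same order held for the phosphodiesterase gene Pde2a, with 27.9 and 33.2 RPM against 67.7 and 42.8 RPM. Pla1a and Gdpd1 were called for 1 input library each, with 103 RPM for Pla1a in input CON and 52.4 RPM for Gdpd1 in input FC, and with 1 read per position Pla1a was at -0.20 in FC and -0.03 in CON.

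Short genes led the ranking of losses shared by both groups. B3gnt7 (chr1:88199796-88203878), a glycosyltransferase gene, held 0.756 RPM in IgG-IP FC, 0.485 in IgG-IP CON, 2.65 in input FC and 1.89 in input CON, from 11 and 8 reads in the IgG-IP libraries. Its log2 ratio was -1.72 (SE 0.43, limma adjusted p = 0.0321), and -1.06 relative to genes of the same GC content. Ptms, which encodes parathymosin, held 0.756, 0.485, 2.61 and 1.83 RPM (log2 ratio -1.69, SE 0.43, limma adjusted p = 0.0356). The call was kept in 6 of 12 alternative settings for B3gnt7 and in 4 of 12 for Ptms. The olfactory receptor Olfr157 (chr4:43847624-43849389) had 1 and 4 reads in IgG-IP and 43 and 33 in input (log2 ratio -2.11). It passed the filter on low values through input alone, so no p-value is given. Elane, the gene of neutrophil elastase, Mrps34, a mitochondrial ribosomal protein gene, Psca, the somite clock gene Hes7, Tnfaip8l2, Apoa1bp, the relaxin gene Rln3, the tight junction gene Cldn4 and 2410015M20Rik had log2 ratios of -1.72 to -1.35 and did not pass. Of the 12, 8 passed the filter through input alone, the side on which they are high, so their order is a description. All 12 lay between 51.1% and 60.3% GC and kept a negative ratio relative to genes of the same GC content, from -1.55 for Olfr157 to -0.68 for Psca.

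The ranking of gains shared by both groups held 10 chemosensory receptors among its first 12 genes. Of these, 8 passed the filter on low values through IgG-IP alone, the side on which they are high, so the ranking is a description and supports nothing about the families. Vmn1r173 and Vmn1r234 are among the 8. Vmn1r173 (chr7:24485827-24488332), a pheromone receptor, had 11 and 20 reads in IgG-IP and 5 and 11 in input, or 0.756 and 1.21 against 0.109 and 0.310 RPM (log2 ratio 1.86). Vmn1r234 held 1.10 and 0.970 RPM in IgG-IP and 0.460 and 0.394 RPM in input, a log2 ratio of 1.10 in FC and 1.11 in CON. Olfr77 (chr9:19721673-19726954) held 3.16, 2.61, 0.504 and 1.32 RPM (log2 ratio 1.68, SE 0.40, limma adjusted p = 0.0214). Its call was kept in 4 of 12 alternative settings, with log2 ratios of 0.68 to 2.30. Olfr1084, Olfr164, Olfr1047, Olfr895, Olfr910, Olfr730 and Vmn1r69 had log2 ratios of 0.88 to 1.66 and did not pass. The other 2 of the 12 were the satellite gene models Gm10716, which stood for 9 neighbours, and Gm10801. Relative to genes of the same GC content the receptors lay between 0.30 (Vmn1r69) and 1.46 (Vmn1r173 and Olfr164). These 10 receptors rested on 5 to 47 reads a library.

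Gene lists are described over the members that passed the filter and, for the receptor families, also over all members. Over all genes tested the median log2 ratio was -0.47 in FC and -0.10 in CON, with 12.9% above 0 and 57.6% below 0 in both groups. Summed over all 437 vomeronasal receptors without a filter, IgG-IP held 1254 RPM in FC and 1213 in CON and input 716 and 1063 RPM, a log2 ratio of 0.81 in FC and 0.19 in CON. Both IgG-IP libraries were above both inputs. Of the 437, 194 passed the filter, 35 of them through IgG-IP alone and 4 through input alone, with 7 called higher and 0 lower, beside 0.151% and 0.122% of all genes. Summed over all 1251 olfactory receptors, IgG-IP held 872 and 865 RPM and input 795 and 820 RPM, a log2 ratio of 0.13 and 0.08, again with both IgG-IP libraries above both inputs. Of these, 547 passed, 109 through IgG-IP alone and 88 through input alone, with 1 called higher and 1 lower, beside the same shares of all genes. The receptor called lower was Olfr157, which passed through input alone. Over all 37273 genes the summed log2 ratio was -0.12 in FC and -0.01 in CON. Among the members that passed, medians were 0.84 in FC and 0.21 in CON for vomeronasal and 0.17 and 0.09 for olfactory receptors. Centred by GC content, the median of vomeronasal receptors was 0.22 and that of olfactory receptors 0.21 above that of all genes. The 12 Y-linked genes tested of 21 had medians of 0.56 and 0.24, none called, with Gm3376 at 0.95 and Tspy-ps at -0.46. Clustered protocadherins, cell surface genes of neuronal identity that lie in tandem arrays, had medians of -0.28 in FC and 0.19 in CON over 25 genes, while the reads summed over the same genes gave 0.06 and 0.13, and their median was 0.32 above all genes at the same GC content. Their extremes were Pcdhb21 (0.72) and Pcdha3 (-0.73), and none was called.

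Lists of brain genes had medians below 0 in both groups, as did all genes tested (-0.47 in FC and -0.10 in CON). The lists of ribosomal proteins, keratins, collagens and Hox genes were below 0 in both groups too. The 12 immediate early genes tested, which are induced by neuronal activity, had medians of -0.93 in FC and -0.19 in CON, with Egr2 at -0.02 and Egr3 at -1.09, and none was called. Neuron markers had medians of -0.68 and -0.13 over 9 genes, with Rbfox3 called lower, Syt1 at 0.10 and Slc17a7 at -0.97. Relative to genes of the same GC content these lists differed from all genes by 0.04 and -0.06. Astrocyte (Slc1a3 -0.09, Aldh1l1 -0.47), oligodendrocyte (lowest Mag, -0.62), microglia (P2ry12 0.06, C1qa -0.83) and endothelium and blood markers (Ptprc 0.11, Pecam1 -0.60) had 0 calls. So did zinc finger proteins (Zfp936 0.84, Zfp296 -1.11), Hox genes (Hoxd13 0.71, Hoxb1 -1.03), histones (Hist1h2bc 0.36, Hist2h2bb -0.57), ribosomal proteins (highest Rpl29, 0.52), keratins (Krt13 0.23, and Krtcap3, which only shares the name, -1.34), collagens (Col5a2 0.34, Col2a1 -0.90), housekeeping genes (highest Gapdh, 0.39) and antigen receptor segments (Trav18 0.62, and Tradd, an adaptor gene that the name pattern takes in, -0.63). The CpG-dense promoter genes had 3 called higher and 15 lower of 7642, with medians of -0.50 and -0.12 close to those of all genes, of which 0.151% were called higher and 0.122% lower. Beside the same shares of all genes, 2 of 822 pseudogenes were called higher, with Gm15753 lowest at -1.67, and 1 of 205 genes over 500 kb, Skint5, with Gm20388 lowest at -0.62. The lowest vomeronasal receptor was Vmn1r199 (-1.11), whose ratio was 0.10 in FC and -2.32 in CON, and the lowest gene tested was A730068I03Rik (-2.11), which passed the filter through input alone. In the list of small RNA genes 4 of 4884 passed the filter, among them n-R5-8s1 (0.18).

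**Figure D2:**
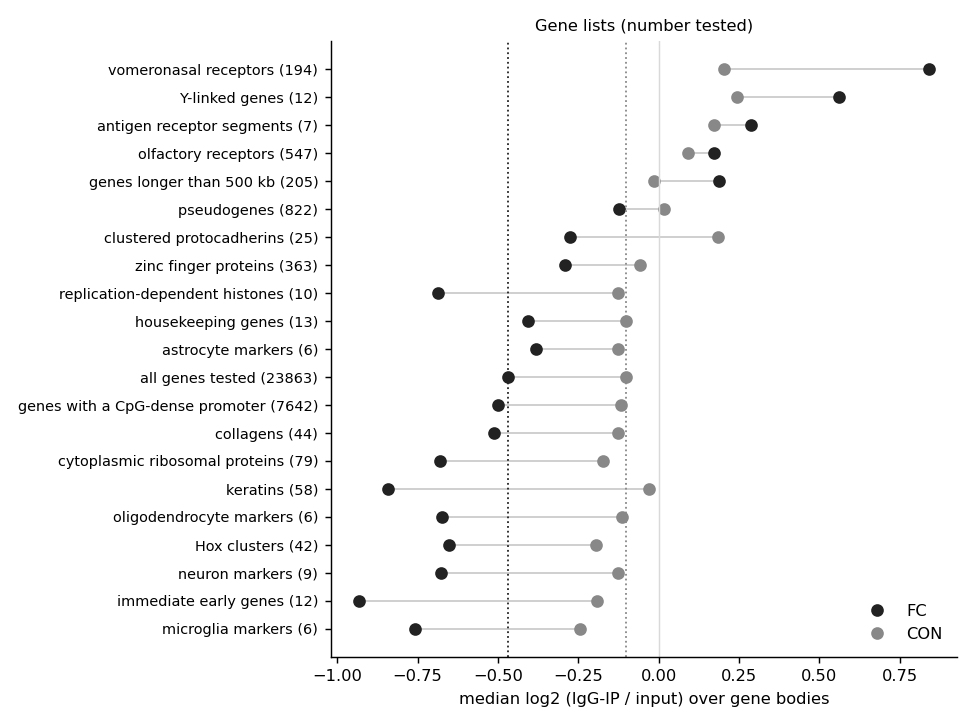
Median log2 ratio of IgG-IP over input over the gene bodies of each list with at least 5 genes tested, with FC in black and CON in grey, and the number of genes tested in parentheses. Dotted lines give the medians of all genes tested (-0.47 in FC, -0.10 in CON). Only genes that passed the filter on low values are plotted, and the median of vomeronasal receptors (0.84) was the highest in FC and that of Y-linked genes (0.24) in CON.

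GC content ordered the windows in both groups, far more so in FC. In windows of 34% to 36% GC the median log2 ratio was 0.90 in FC and 0.12 in CON, and in windows of 50% to 52% GC it was -0.91 and -0.19. The sign was shared between the groups at each end. Across the 250821 windows Spearman's rho of the ratio with GC content was -0.86 in FC and -0.30 in CON, given as a description since windows are no replicates. The level itself followed GC content in input (rho 0.80 in FC and 0.32 in CON) and hardly in IgG-IP (-0.09 and 0.02). The log2 of the GC-rich over GC-poor level differed by -1.04 (IgG-IP less input) on average, with both IgG-IP libraries below both inputs (exact permutation test over the 4 libraries, two-sided p = 0.333, the smallest this design can give).

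**Figure D3:**
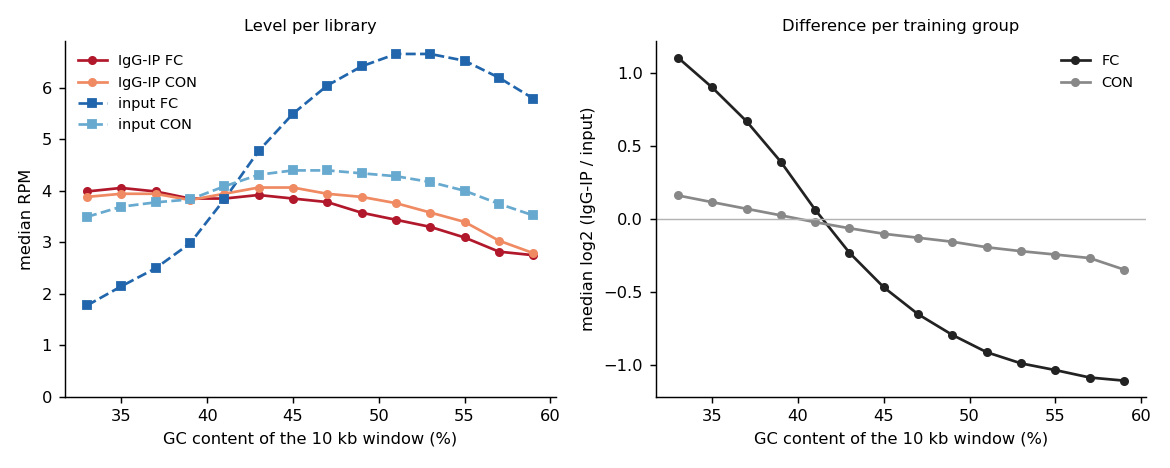
Median RPM of 10 kb windows per library (left) and median log2 ratio of IgG-IP over input per training group (right) against the GC content of the window, in steps of 2%. Input FC rose with GC content while both IgG-IP libraries were flat to falling, and the ratio fell with GC content in FC (0.90 to -0.91 between 34% and 52%) and less in CON (0.12 to -0.19).

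Beyond GC content, the ratio followed the position along the chromosome. Among autosomal windows compared with all windows of the same GC content, with 1 read per position and without windows dense in input, the log2 ratio was 0.21 in FC and 0.17 in CON between 3 and 5 Mb, the first known sequence at the centromeric end. It was 0.18 and 0.12 between 10 and 20 Mb, 0.01 and 0.00 between 40 and 80 Mb, and -0.13 and -0.08 between 120 and 200 Mb. FC and CON had the same sign in each bin up to 40 Mb and beyond 80 Mb. The first 20 Mb was higher than the remainder of the chromosome in 19 of 19 autosomes in each group, by 0.00 (chromosome 16) to 0.30 (chromosome 9) in FC. Relative levels in the first bin were 1.02 and 0.992 in IgG-IP and 0.878 and 0.883 in input, so that the inputs were low there and IgG-IP was near the mean. Short autosomes were higher as a whole: chromosome 19 stood at 0.15 in both groups and chromosome 1 at -0.06 and -0.07, and rho with length was -0.85 in FC and -0.87 in CON over 19 autosomes that share the 4 libraries. Within 20 to 60 Mb alone it was -0.58 and -0.74. This comparison was chosen after the data had been seen.

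**Figure D4:**
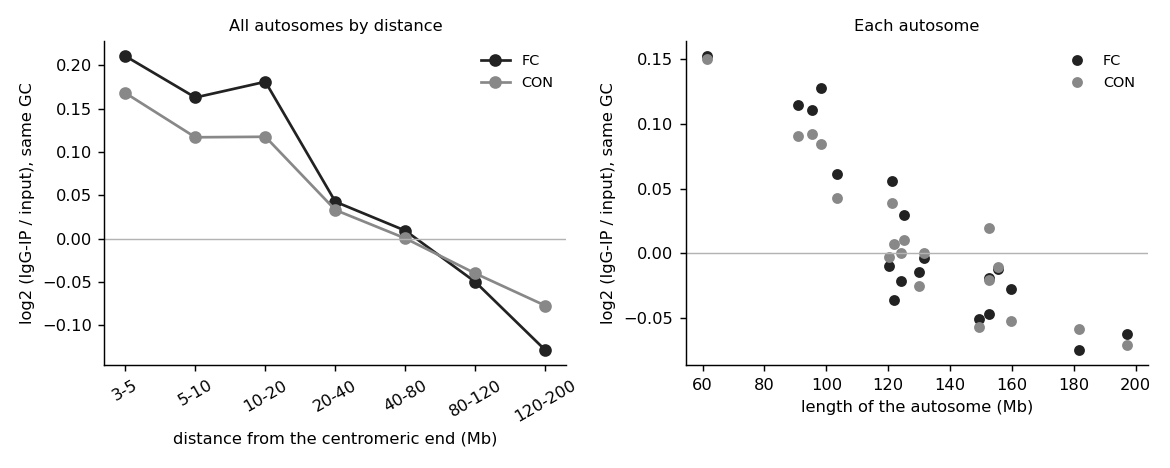
Log2 ratio of IgG-IP over input relative to windows of the same GC content, by distance from the centromeric end over all autosomes (left) and for each of 19 autosomes against its length (right), with FC in black and CON in grey. The ratio fell from 0.21 (FC) and 0.17 (CON) in the first bin to -0.13 and -0.08 in the last, and the shortest autosome had the highest ratio in both groups.

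The Y chromosome was higher and mitochondrial DNA lower in IgG-IP. Reads on Y were 2.997 and 2.53 times as dense as on autosomes in IgG-IP FC and CON, and 1.66 and 2.01 times in input, a log2 ratio of 0.86 and 0.33. Without windows dense in input and at the same GC content, the ratio was 0.58 in FC and 0.28 in CON with 1 read per position. The X chromosome had 0.496 and 0.480 times the autosomal density in IgG-IP and 0.378 and 0.467 times in input, and at the same GC content its ratio was 0.12 in FC and 0.01 in CON, within the range of the autosomes. Mitochondrial DNA, which has no nucleosomes, took 0.0534% of reads in IgG-IP FC, 0.0903% in IgG-IP CON, 0.132% in input FC and 0.298% in input CON. IgG-IP was lower in both groups, with log2 ratios of -1.29 and -1.72. With 1 read per position the libraries overlapped, with 0.0463% and 0.0655% in IgG-IP and 0.0380% and 0.0615% in input (exact permutation test, two-sided p = 0.667). Input then kept 14917 and 18683 positions of 60293 and 105776 reads, so that this measure leaves out most of the input reads. With all reads the exact permutation test over the 4 libraries gave two-sided p = 0.333 for X, Y and mitochondrial DNA, the smallest possible.

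Around the TSS, IgG-IP was lower than input where CpG was dense. At the 7366 CpG-dense start sites, the density within 250 bp of the TSS relative to that at 3 to 5 kb was 0.363 in IgG-IP FC, 0.348 in IgG-IP CON, 0.558 in input FC and 0.418 in input CON. At the 14998 other start sites it was 0.902, 0.892, 1.09 and 0.908. All 4 libraries dipped at CpG-dense sites and IgG-IP dipped most, with log2 ratios of -0.62 in FC and -0.26 in CON. The 12336 CpG-dense windows of 1 kb had log2 ratios of -0.98 and -0.31, which became 0.09 and 0.00 against windows of the same GC content. By annotation, intergenic sequence took 52.1% and 51.6% of IgG-IP reads and 47.7% and 51.1% of input reads, introns took less (log2 ratio -0.18 in FC and -0.04 in CON), and the 5 kb upstream of the TSS 4.02% and 4.11% against 4.72% and 4.27%. Exact (Clopper-Pearson) 95% intervals of these shares, for counting error only, reached at most 0.0257 percentage points from the values. In each of these classes both IgG-IP libraries lay on one side of both inputs (exact permutation test, two-sided p = 0.333, the smallest possible). Exons took 6.29% and 5.70% of IgG-IP reads and 5.11% and 4.87% of input reads with all reads, but 3.32% and 3.42% against 4.60% and 3.63% with 1 read per position, and without the windows dense in input, exon windows were lower in IgG-IP with all reads too (log2 ratio -0.49 in FC and -0.11 in CON, or -0.05 and -0.02 against windows of the same GC content).

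**Figure D5:**
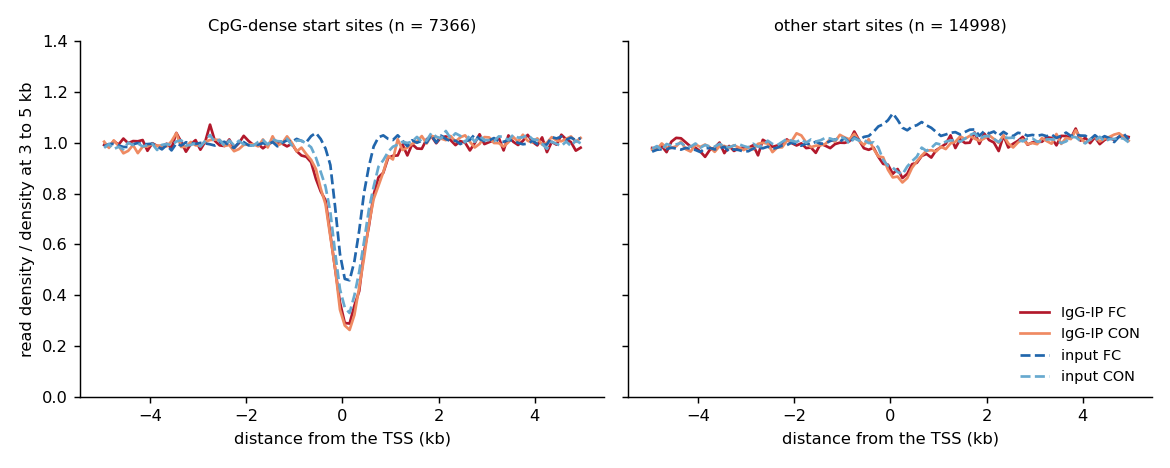
Read density, with 1 read per position, around 7366 CpG-dense and 14998 other transcription start sites, relative to the density at 3 to 5 kb, in bins of 100 bp for each library. At CpG-dense sites the 2 IgG-IP lines (0.363 and 0.348 within 250 bp) lay below the 2 input lines (0.558 and 0.418).

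FC and CON shared the pattern more at larger scales. Small windows hold fewer reads, so counting error weighs more there, and its part in this rise was not tested. The log2 ratios of FC and CON had a Spearman's rho of 0.33 over 10 kb windows, 0.69 over 100 kb and 0.83 over 1 Mb, and 0.13, 0.48 and 0.78 after centring by GC content. These are descriptions over windows that share libraries and base composition. Of 2568 windows of 1 Mb, 106 (4.13%) were above 0.2 in both groups against windows of the same GC content. In 143 windows (5.57%) both groups were below -0.1, first chr2:177000001-178000000 at -0.29 in FC and -0.18 in CON. The first gain by the lower of the 2 ratios was chr19:13000001-14000000, within a cluster of olfactory receptors, at 0.73 in FC and 0.45 in CON, from relative levels of 1.24 and 1.17 in IgG-IP and 0.748 and 0.855 in input. Next among the autosomes came chr17:19000001-20000000, with Vmn2r genes, at 0.70 and 0.39. The second in rank, chrY:2000001-3000000, stood at 0.82 and 0.45.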

How the data were processed

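The authors sequenced the libraries on a SOLiD 3 instrument and aligned the 50-base reads in colour space to mm9 with Bioscope, allowing up to 6 mismatches. They deposited the aligned reads, and the score of each deposited read is its mapping quality. By the study's methods, reads that fit several places in the genome were also reported, up to a limit. Whether such a read was deposited more than once was not checked here, and shares of reads in repeats could depend on it. Reads are 25 to 50 aligned bases long. There is 1 library per group and kind, and limma's p-values rest mainly on variance shared over features.

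Reads were counted by 5' position in windows of 1 kb and 10 kb. In gene bodies of the GENCODE mm9 annotation they were counted by overlap of at least 1 base, and in annotation classes by the midpoint of the read. Counts were scaled to RPM, with all 4 libraries holding between 14549689 and 45673239 reads. Features with a mean of at least 0.5 RPM were tested on log2(RPM + 0.1) with limma 3.58.1 (R 4.3.3, mean-variance trend, two-sided) and Benjamini-Hochberg adjustment over all features, at 0.05. Fold changes are on that scale and understate those of low features. Windows of 1 kb needed a mean of 10 reads on either side and were given without a test. Shares and ratios were compared by the exact permutation test, which cannot go below 0.333 here. Other steps used Python 3.11.15, NumPy 2.4.6, SciPy 1.17.1, pandas 2.3.3 and matplotlib 3.10.9. Windows dense in input held at least 5 times the median input level. A satellite window shared at least 10 of its 12-base words with the unit. Values at the same GC content are relative to windows or genes in the same GC step.

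Genes named were the 12 protein-coding genes with the largest gain and the 12 with the largest loss, ranked by the smallest of 4 log2 ratios (FC and CON, with all reads and 1 read per position), all in one direction, with 1 gene named per 100 kb, the highest and lowest member of each list, and 6 windows of 10 kb per direction by the same ranking, 1 per Mb. Other called genes, the satellite unit and the stacks were chosen after their values were seen. The members and lists were chosen with earlier results of these data known. Masked repeats could not be used as a class, since the genome was not masked, and short tandem repeats of period 1 to 6 over at least 24 bases took their place. The scripts were tested on simulated data. Alternatives were 1 read per position, a mapping quality of at least 20, median scaling, centring by GC content, a pseudocount of 0.5 RPM, no filter, limma voom, and leaving out each library. The 2-fold count on 1 read per position and the limit to reads aligned over at least 40 bases were chosen after seeing the data. The training group was used as a block in an alternative because IgG-IP and input of a group came from the same chromatin by the study's methods. The libraries precipitated for H4K5ac were not analysed here. Some genes and sequences chosen by these rules are not reported here. A gene that passed the filter through the side on which it is high had to differ, so values over all members, without a filter, were added after the data had been seen.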

Additional observations from a re-analysis of the deposited data

How the results depend on the processing

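The counts of calls depended on the processing, while the signs of the X, Y, intron, promoter and intergenic log2 ratios and of the GC content difference stayed with 1 read per position and with mapping quality of at least 20. For 10 kb windows (165 higher, 29 lower), a mapping quality of at least 20 gave 82 and 4, no filter on low values 73 and 113, and limma voom 16 and 0 (unadjusted p under 0.05 in 15165 and 8734). Lower windows numbered 9 with 1 read per position, 19 with median scaling and 7 when centred by GC content. For gene bodies (36 higher, 29 lower), 1 read per position gave 55 and 17, median scaling 3 and 0, centring by GC content 21 and 58, no filter 0 and 0 of 37273 tested (unadjusted p under 0.05 in 496 and 2511) and limma voom 18 and 0 (419 and 3063). The same linear model without moderated variance, chosen after seeing the data, called 0 windows and 0 genes in either direction, with unadjusted p under 0.05 in 4688 and 6880 windows and 198 and 873 genes. With the training group as a replicate block, since IgG-IP and input of a group share their chromatin, there were 88 higher and 7 lower windows and 22 higher and 4 lower genes. With the block and centring by GC content there were 362 and 65 windows and 8 higher and 27 lower genes. Leaving out 1 library each gave 17 to 37407 higher and 5 to 38124 lower windows, and 16 to 1838 higher and 1 to 9770 lower genes, the highest each time without input CON. The lone library left on a side is then assumed to vary like the others. The cause of these shifts was not tested.

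Windows of 1 kb (52 higher, 148 lower) numbered 4 and 118 with 1 read per position, 15 and 291 with mapping quality of at least 20 and 4381 and 16161 at 2-fold. With a minimum of 20 reads in both they numbered 9 and 0, a minimum that none of the 148 meets. Further settings were chosen after seeing the data. They gave 2242 and 11296 at 2-fold with 1 read per position, 20 and 427 with reads aligned over at least 40 bases, and 52 and 1 with counts under 3 raised to 3 reads. Most lost windows had an IgG-IP library at 0, while no gained window had an input library at 0, so the last setting could not change the gains. The exon log2 ratio (0.27) turned to -0.28 with 1 read per position and to -0.035 with mapping quality of at least 20. The latter is a mean of groups that went opposite ways, -0.13 in FC and 0.06 in CON. The ratio of mitochondrial DNA (-1.51) turned to 0.20 with 1 read per position, where the libraries overlap and most input reads repeat a position. 

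Among named genes 35 of 1564 values changed sign. With 1 read per position Acacb stood at -0.49, Cdk5rap2 at -0.057 and Gapdh at -0.43, and Gapdh at -0.59 with mapping quality of at least 20. Centred by GC content, with or without the block, a setting whose median over all genes is -0.30, Cdh12 stood at -0.0062, Crisp3 at -0.015, Skint5 at -0.025, Col5a2 at -0.35, P2ry12 at -0.33, Ptprc at -0.50, Syt1 at -0.40 and Egr2 at 0.30. With median scaling Egr2 stood at 0.27 and Slc1a3 at 0.19. With 1 library left out, the range was -0.22 (without input CON) to 0.19 (without input FC) for Egr2, and for the same pair of libraries -0.23 to 0.038 for Slc1a3, 0.69 to -0.014 for Col5a2, 0.27 to -0.048 for Ptprc and 0.25 to -0.056 for Syt1. It was 2.99 (without IgG-IP FC) to -0.61 (without IgG-IP CON) for Acacb, and for that pair 0.13 to -0.018 for P2ry12 (-0.0060 without input FC), -1.11 to 0.19 for Tspy-ps and -2.26 to 0.034 for Vmn1r199. Krt13 ranged from 0.66 without input FC to -0.19 without input CON (-0.078 without IgG-IP CON), and n-R5-8s1 from 0.74 to -0.38 for the same pair. Relative to all genes, 23 of 264 list medians changed sign, in the Hox, histone, keratin, collagen, immediate early, housekeeping and astrocyte lists. Depth limits short genes, since the 12 named losses rest on 1 to 11 IgG-IP reads a library.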
